A study of Mus musculus with 10 samples.

Results

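Fbxo2, Fbxo6, Fbxo44, Fbxo17 and Fbxo27 are the 5 mouse genes of the F-box family whose proteins carry the F-box-associated domain, the domain with which Fbxo2 binds sugar chains on glycoproteins. All 5 were found among the 47729 genes of the deposited count table, and all 5 were among the 16362 genes that passed the filter on low counts. The family was chosen by the large difference of Fbxo2 in these same libraries, so the values of Fbxo2 are given as a description, without a test, and tests are given for the other 4 members and for their neighbours and partners.

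Libraries came from 5 wild-type mice of the CD1 strain, aged 40 postnatal days, and held RNA of the retinal pigment epithelium (RPE), a sheet of cells behind the retina. In each mouse the GFP control eye had received an adeno-associated virus (AAV) carrying GFP under the Best1 promoter, and the Nrf2 eye that same vector together with an AAV carrying the human Nrf2 coding sequence under the same promoter, which gives 10 libraries in 2 groups of 5. As a transcription factor, Nrf2 drives genes of oxidative defence, and the Best1 promoter is active in RPE cells. Per the study's methods the vectors had different capsids, so that the Nrf2 eyes differed from the control eyes in the capsid and in the amount of vector as well as in Nrf2. The retina was removed, the eyecup was put into RNA Protect, and RNA was purified from the supernatant. Other cells of the eyecup could still add RNA.

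F-box proteins are the part of an SCF ubiquitin ligase that chooses the substrate. They dock on Skp1, which joins them to the scaffold Cul1 and the RING protein Rbx1, and the ligase then tags the bound protein with ubiquitin. Fbxo2, which is best known from neurons, binds high-mannose N-glycans and takes part in the disposal of misfolded glycoproteins that are returned from the endoplasmic reticulum (ER) to the cytosol. Fbxo6 binds similar glycans, Fbxo27 acts on glycoproteins of damaged lysosomes, and Fbxo44 is known for substrates such as Rgs2 rather than for binding glycans.

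Fbxo2 (ENSMUSG00000041556) lies on the plus strand of chromosome 4 at 148160621 to 148166424 in the GRCm38 (mm10) build, beside Fbxo44 (148152800 to 148160482) and Fbxo6 (148145716 to 148152140), which are both on the minus strand. Fbxo27 (28692849 to 28699338) and Fbxo17 (28716804 to 28738144) lie close together on the plus strand of chromosome 7. Fbxo2 and Fbxo44 start 139 bases apart and point away from each other. The sequence between their annotated starts, chr4:148160483-148160620, is shown because the genes on its sides behaved differently in the Nrf2 eyes. It is given on the plus strand, from Fbxo44 on the left to Fbxo2 on the right, from the RefSeq promoter table of GRCm38.p6.

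Fbxo44 to Fbxo2: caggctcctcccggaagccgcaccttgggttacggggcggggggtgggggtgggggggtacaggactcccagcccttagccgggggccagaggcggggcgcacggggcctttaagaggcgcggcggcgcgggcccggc

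These 138 bases are 77.5% G or C. The antioxidant response element, the DNA motif that Nrf2 binds with small Maf proteins, was searched on both strands in the core form TGACNNNGC and in the looser form TGANNNNGC, which contains the first, in windows from 250 bases before to 50 bases after each RefSeq gene start. The core form was present in 12.4% and the looser form in 41.3% of all 32851 windows. The single window of Fbxo2, chr4:148160418-148160717, which covers the whole stretch above, held neither form. Neither did the 3 windows of Fbxo6 and the 2 windows of Fbxo17, and Fbxo44 held the looser form in 1 of 3 windows, after the start. Fbxo27 held the core form in 1 of its 4 windows. The 250 bases before that start, chr7:28692599-28692848 on the plus strand, are shown because Fbxo27 was the other member whose level differed, with the match in capitals (the motif reads on the opposite strand).

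Fbxo27: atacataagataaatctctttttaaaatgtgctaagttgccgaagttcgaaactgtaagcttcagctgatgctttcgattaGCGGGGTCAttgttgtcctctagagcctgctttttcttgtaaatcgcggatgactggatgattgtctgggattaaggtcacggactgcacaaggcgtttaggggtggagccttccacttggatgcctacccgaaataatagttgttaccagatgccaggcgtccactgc

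The match lies 169 bases before the start. A match of this kind is a description of the letters in the window, and its absence says only that these letters are not there.

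The transcripts of the members share only short runs of bases with each other. Their sequences were not compared with those of other genes. From the annotated coding sequences, the proteins ranged from 276 residues for Fbxo44 to 297 for Fbxo2, and identical residues in pairwise alignments ranged from 36.7% for Fbxo44 and Fbxo17 to 60.4% for Fbxo17 and Fbxo27. Fbxo2 was most like Fbxo6, with 50.8% identical residues. The longest run of bases shared by the transcripts of any 2 members was 25, between Fbxo6 and Fbxo44, and for Fbxo2 it was 13. No annotated gene overlapped Fbxo2, Fbxo44, Fbxo17 or Fbxo27, and the microRNA gene inside Fbxo6 had 3 counts in total against 12331 for Fbxo6.

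Fbxo2 was near the low end of the tested genes in control eyes and among the abundant ones in Nrf2 eyes. Its level in the control eyes was 2.45, 4.50, 1.19, 1.19 and 1.65 CPM (counts scaled to the library total), in mice 1 to 5, from 17 to 73 counts per library. In the Nrf2 eyes of the same mice it had 179.9, 254, 147, 296 and 250.4 CPM, from 3645 to 6239 counts. The lowest Nrf2 eye was far above the highest control eye, that of mouse 2. The means were 2.20 ± 1.39 and 225 ± 60.7 CPM (SD, n = 5 eyes), and the fitted log2 fold change was 6.75 (SE 0.35), or 108-fold. Within the mice, the log2 difference was 6.22, 5.77, 6.85, 7.77 and 7.07. By mean CPM, Fbxo2 moved from rank 13423 to rank 664 of the 16362 tested genes, and its log2 fold change ranked 11 from the highest. The control values stood above the level that 3 counts give, 0.110 to 0.244 CPM in these libraries, a floor that covers counting error only.

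Among the other 4 members, 1 passed the test, against 6.33% of all genes tested in either direction (edgeR quasi-likelihood test with the mouse as a block, Benjamini-Hochberg adjusted p under 0.05). That member was Fbxo27 (ENSMUSG00000037463), which fell. Fbxo27 had 84.5, 66.0, 95.5, 92.5 and 58.6 CPM in the control eyes of mice 1 to 5, and 36.0, 23.9, 39.9, 30.1 and 21.2 CPM in the Nrf2 eyes. Every Nrf2 eye was below every control eye. The means were 79.4 ± 16.3 and 30.2 ± 7.88 CPM (SD, n = 5), with a log2 fold change of -1.42 (SE 0.10, edgeR adjusted p = 0.000794), and the difference had the same sign in 5 of 5 mice, from -1.68 to -1.15. Of all genes tested, 2.73% passed as lower in Nrf2 eyes and 3.60% as higher. Its log2 fold change ranked 168 from the lowest of the 16362 genes. It remained past the threshold in each of the 11 other fits that were tried, with a log2 fold change from -1.45 to -1.33 and an adjusted p of at most 0.00705.

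**Figure D1:**
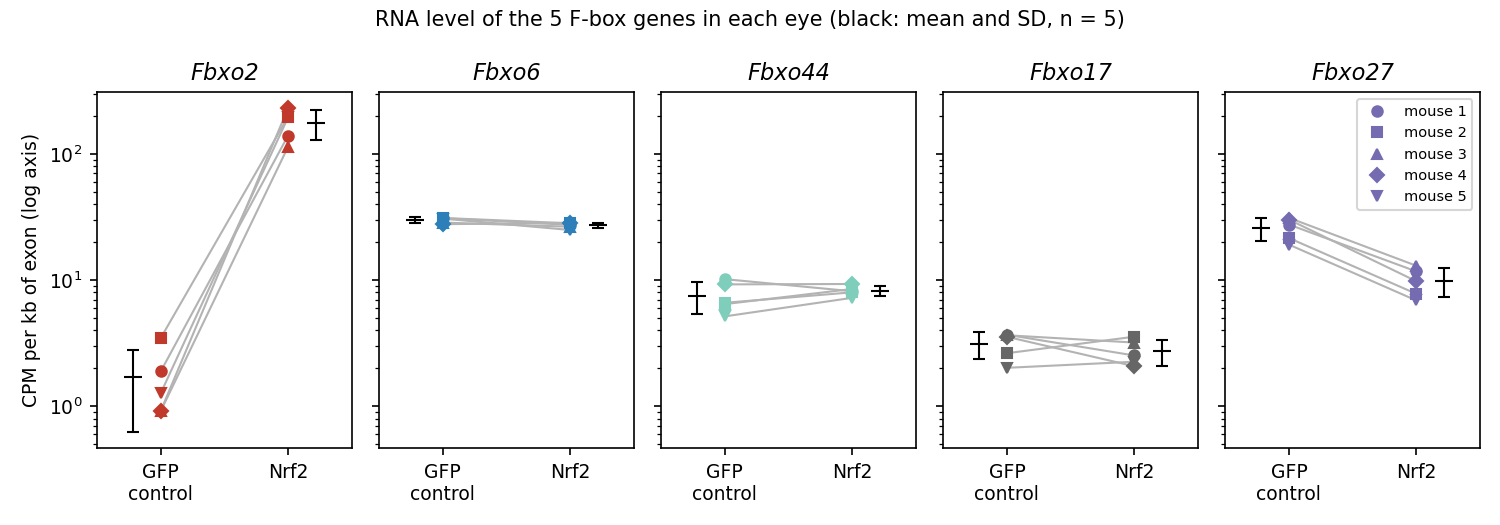
Level of each member in CPM per kb of exon, on a log axis, for the GFP control eye and the Nrf2 eye of each of the 5 mice, joined by grey lines, with the mean and SD of each group in black. Fbxo2 lies at most at 3.49 in control eyes and at least at 114 CPM per kb in Nrf2 eyes, Fbxo27 falls in every mouse, and the groups of Fbxo44 and Fbxo17 overlap.

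The 2 members beside Fbxo2 on chromosome 4 did not pass the test. Fbxo44 (ENSMUSG00000029001), whose start faces away from that of Fbxo2, had 30.8, 20.02, 19.6, 28.0 and 15.6 CPM in control eyes and 24.7, 24.2, 25.8, 28.2 and 21.9 CPM in Nrf2 eyes. The groups overlapped, and the Nrf2 eye was the higher in 3 of 5 mice. Its log2 fold change was 0.15 (SE 0.13, edgeR adjusted p = 0.642), and the within-mouse differences ran from -0.24 to 0.41, the largest of which was far below the smallest for Fbxo2. Fbxo6 (ENSMUSG00000055401) had 68.3, 68.6, 63.1, 61.3 and 67.8 CPM in control eyes and 60.5, 62.3, 58.5, 62.8 and 55.1 CPM in Nrf2 eyes. Its level thus ran only from 55.1 to 68.6 CPM over the 10 eyes, and its log2 fold change of -0.15 (SE 0.06) had an edgeR adjusted p of 0.438, although the Nrf2 eye was the lower in 5 of 5 mice after scaling.

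Fbxo17 (ENSMUSG00000030598), the chromosome 7 neighbour of Fbxo27 and the member most like it in sequence, did not pass either. It had 9.23, 6.59, 9.15, 8.90 and 5.05 CPM in control eyes and 6.33, 8.91, 8.01, 5.20 and 5.65 CPM in Nrf2 eyes. The groups overlapped, with a log2 fold change of -0.20 (SE 0.21, edgeR adjusted p = 0.748) and within-mouse differences from -0.83 to 0.41. None of Fbxo6, Fbxo44 and Fbxo17 passed the threshold in any of the 11 other fits.

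Dividing CPM by exon length allows the members to be compared with each other. In control eyes Fbxo6 stood at 29.8 ± 1.54 CPM per kb of exon and Fbxo27 at 25.9 ± 5.34, and these leading members overlapped. Fbxo44 followed at 7.54 ± 2.10, Fbxo17 at 3.12 ± 0.75 and Fbxo2 at 1.70 ± 1.08 CPM per kb (SD, n = 5 eyes), and the ranges of Fbxo17 and Fbxo2 overlapped. In Nrf2 eyes the order changed. Fbxo2 stood first at 175 ± 47.1 CPM per kb, and Fbxo6 second at 27.1 ± 1.42, with no overlap between them. Fbxo27, at 9.87 ± 2.57, overlapped Fbxo44, at 8.26 ± 0.76, and Fbxo17 was last at 2.73 ± 0.63 CPM per kb.

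The makeup of the family followed from these levels. The summed level of the 5 members went from 68.1 ± 6.37 to 223 ± 45.6 CPM per kb, while that of the 4 members without Fbxo2 went from 66.4 ± 6.62 to 48.0 ± 3.89. In control eyes Fbxo6 made up 44.2% ± 5.79 of the sum, Fbxo27 37.8% ± 5.15 and Fbxo2 2.54% ± 1.66 (SD, n = 5 eyes). In Nrf2 eyes Fbxo2 made up 77.6% ± 5.98, from 69.0% in mouse 3 to 82.4% in mouse 5, and Fbxo27 4.75% ± 2.19. These shares depend on the exon lengths used: without dividing by length, Fbxo2 made up 1.27% of the summed CPM in control eyes and 64.0% in Nrf2 eyes. The share of Fbxo2 is set by the difference for which it was chosen and is given as a description.

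**Figure D2:**
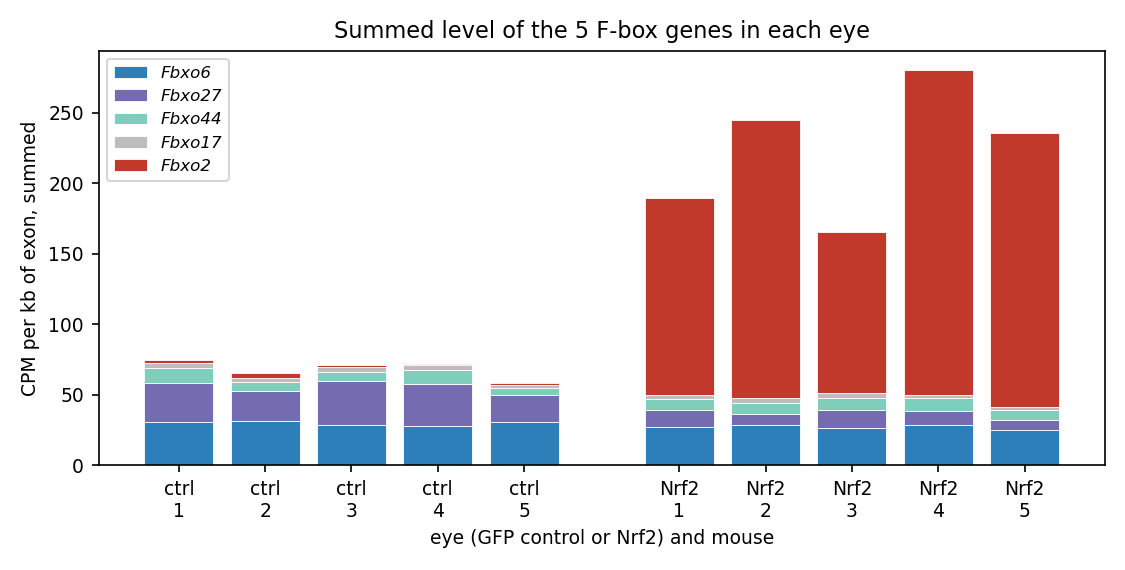
Summed level of the 5 members in each eye, in CPM per kb of exon, stacked by gene, with the 5 GFP control eyes on the left and the 5 Nrf2 eyes on the right. Fbxo6 and Fbxo27 make up most of each control bar, and Fbxo2 makes up from 69.0% to 82.4% of each Nrf2 bar.

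The level of Fbxo2 was set beside that of Nfe2l2, the mouse gene for Nrf2, and beside cell type markers in the same eyes. Nfe2l2 had 79.3 to 109.6 CPM in control eyes and 267, 352, 414, 371 and 360 CPM in the Nrf2 eyes of mice 1 to 5. Reads of the delivered human sequence that align to the mouse gene and reads of the mouse gene itself cannot be told apart here. Beside these stood 179.9, 254, 147, 296 and 250.4 CPM of Fbxo2. Mouse 3 had the highest Nfe2l2 and the lowest Fbxo2, and among the other 4 Nrf2 eyes the lowest and the highest eye were the same for both genes. With 5 Nrf2 eyes no correlation was computed.

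Because Fbxo2 is known from neurons, RNA of retinal neurons in the eyecup was looked for. The summed CPM of the inner retina neuron markers was 284 to 1089 in control eyes and 308 to 1252 in Nrf2 eyes, of which Slc6a9, a glycine transporter, made up 239 to 446 CPM in every eye. Of the 10 markers tested 1 passed, against 6.33% of all genes, with 3 at an unadjusted p under 0.05 and 3 called by DESeq2: Nefm, a neurofilament subunit, had 3.63 ± 6.29 and 33.3 ± 15.8 CPM (SD, n = 5; log2 fold change 4.34, SE 0.69, edgeR adjusted p = 0.00803), was higher in 5 of 5 mice and was called in 9 of the 11 other fits. The Nrf2 eyes alone could carry Nefm past the filter on low counts, so nothing is read from that call. The other 9 did not pass in edgeR and had both signs, from -0.97 for Syt1, a synaptic vesicle protein, to 1.46 for Tubb3, a neuronal tubulin. The part of neuronal RNA in the level of Fbxo2 was not tested. Both eyes of mouse 2 stood apart. Snap25, a synaptic protein of neurons, had 316 and 343 CPM in the control and Nrf2 eye of mouse 2 and at most 39.95 CPM in any other eye, and the rod markers summed to 20267 and 7896 CPM there, against at most 3143 CPM elsewhere. The control eye of mouse 2 also had the highest Fbxo2 of the control eyes. Without mouse 2, the log2 fold change of Fbxo2 was 7.08 and that of Fbxo27 was -1.37 (edgeR adjusted p = 0.00619).

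Part of the RPE markers moved as well. Of 12 tested, 6 fell (Rpe65, Rlbp1, Rgr, Lrat, Otx2 and Kcnj13, genes of the visual cycle, a transcription factor and a potassium channel of the RPE) and none passed as higher, against the 6.33% of all genes, and the call of Otx2 held in only 4 of the 11 other fits, those of the other 5 in all 11. The pigment genes Tyr, Tyrp1 and Pmel had 0.88, 0.24 and 0.17 on the log2 scale and did not pass. Best1 itself was low in both groups, at 0.77 and 1.14 CPM. The summed RPE markers in mice 1 to 5 were 33932, 23065, 33177, 42737 and 21414 CPM in control eyes and 19069, 11072, 28998, 16201 and 12627 CPM in Nrf2 eyes. In bulk tissue, fewer cells of a type and less RNA per cell cannot be told apart. Ttr, which was 11543 and 11751 CPM on average in control and Nrf2 eyes, made up much of these sums, while Rpe65, Rgr and Lrat were lower in the Nrf2 eye of every mouse. The log2 difference of Fbxo27 in mice 1 to 5 was -1.15, -1.48, -1.24, -1.68 and -1.55. The RPE sum and Fbxo27 were both lower in the Nrf2 eye of every mouse, and whether the fall of Fbxo27 goes with that of the 6 RPE markers was not tested.

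Markers of microglia and macrophages were higher in Nrf2 eyes, with 11 of 12 called, against 3.60% of all genes. The median log2 fold change of the 12 was 4.47. A marker with few counts in control eyes could pass the filter on low counts only through the Nrf2 eyes. Nothing is therefore read from this share. The summed levels, 297 to 382 CPM in control eyes and 537 to 2226 CPM in Nrf2 eyes, weigh the most abundant markers most. The marker that was not called, Csf1r, had -0.57 (SE 0.33), and the call of Sall1 held in 5 of the 10 other fits that tested it. In the Nrf2 eyes of mice 1 to 5 the sums were 1108, 537, 896, 1326 and 2226 CPM, beside the Fbxo2 levels given above. The part of these cells in the level of Fbxo2 was not tested. None of the 5 markers each of Mueller glia and astrocytes, of endothelium, of fibroblasts and of muscle passed in edgeR, with 0 at an unadjusted p under 0.05 and 0 by DESeq2, and of the 10 rod markers tested 0 passed in edgeR, 1 had an unadjusted p under 0.05 and 1 passed in DESeq2. The summed muscle markers nevertheless set Nrf2 eyes apart, with 323, 208 and 518 CPM in mice 3, 4 and 5 and 3.73 and 11.9 CPM in mice 1 and 2, against 41.8 to 75.4 CPM in control eyes. Their part in the levels of the members was not tested.

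No gene tested around Fbxo2 was called. Within 500 kb on either side the table held 45 other genes, of which 21 were tested, Fbxo6 and Fbxo44 included. None passed the edgeR test, with 4 at an unadjusted p under 0.05 and 2 called by DESeq2, against the 6.33% of all genes. Their median log2 fold change was -0.15, against -0.01 over all genes tested. The protein-coding neighbours tested within 100 kb were Fbxo44, Fbxo6, Mad2l2 and Agtrap. Mad2l2, a subunit of a DNA repair complex, had the lowest value of the region, -0.55 (SE 0.17, edgeR adjusted p = 0.101), which passed only in DESeq2 (adjusted p = 0.0405). Agtrap, which encodes a protein bound to the angiotensin receptor, had -0.39 (SE 0.17, edgeR adjusted p = 0.219). The highest value, 1.32 (SE 0.66, edgeR adjusted p = 0.240), belonged to Angptl7, 329 kb away, which was named after its value was seen and passed in DESeq2 and without mouse 5.

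On chromosome 7, within 100 kb of Fbxo27 or Fbxo17 the table held 15 other genes, of which 12 were tested and 2, Ccer2 and Acp7, were called higher in Nrf2 eyes (16.7%, beside 3.60% of all genes). Both passed the filter on low counts only through the Nrf2 eyes, so that they had to differ, and nothing is read from this count. Ccer2 (28756174 to 28758968) lies 18.03 kb beyond Fbxo17. It had 0, 6, 1, 0 and 0 counts in the control eyes of mice 1 to 5 and 269, 638, 367, 205 and 218 counts in the Nrf2 eyes. The groups were far apart, at 0.088 ± 0.16 and 16.4 ± 5.59 CPM (SD, n = 5). Its end overlaps that of Nfkbib on the opposite strand, and the strand setting of the counting is not given in the sources used here. Nfkbib, an inhibitor of NF-kappa B, had 33.4 and 36.5 CPM (log2 fold change 0.11, SE 0.11, edgeR adjusted p = 0.736).

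Acp7 (28607634 to 28631332), a gene of the purple acid phosphatase family, lies 61.5 kb before Fbxo27. It had 0 counts in all 5 control eyes and 80, 88, 51, 66 and 40 counts in the Nrf2 eyes. Against a floor of 3 counts per control library, its mean of 3.39 CPM was at least 20.2-fold higher. A filter on a mean of 50 counts left it out. The 10 other genes tested there, Samd4b, Pak4, Mrps12, Sars2, Nfkbib, Sirt2, Rinl, Hnrnpl, Ech1 and Lgals4, ran from -0.38 for Sars2 to 0.11 for Nfkbib on the log2 scale, and none was called.

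The 6 tested genes whose pattern over the 10 libraries was most like that of Fbxo2 were Ccer2, Sstr5, Hmox1, Brinp3, Gstm1 and Adm. Likeness was measured as the root mean square difference of log2 CPM after subtracting each gene's mean in the control eyes. It was 0.50 for Ccer2, 0.55 for the somatostatin receptor Sstr5, 0.61 for the heme oxygenase Hmox1, 0.61 for Brinp3, 0.84 for the glutathione transferase Gstm1, which has close copies in the genome, and 0.87 for Adm, the precursor of the peptide adrenomedullin. For the other 4 members it was 4.70 to 5.82. These genes were picked from all those tested for following the same difference between the groups, and their likeness is a description. Sstr5 had 0 counts in all 5 control eyes and 115 to 363 counts in Nrf2 eyes, at least 57.8-fold higher against a floor of 3 counts per control library. Hmox1 went from 10.03 ± 2.95 to 693 ± 123 CPM (SD, n = 5). In the promoter table, the core motif was present in the single window of Adm and in none of the 3 windows of Brinp3, the 2 of Gstm1 and the single window of Ccer2. Sstr5 and Hmox1 were not searched here.

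The genes of the ligase that carries the Fbxo2 protein gave no call. None of the 29 tested genes of the SCF core, its neddylation and its regulators passed the edgeR test, against 6.33% of all genes, with 1 at an unadjusted p under 0.05 and 0 called by DESeq2. Their log2 fold changes ran from -0.41 for Glmn, an inhibitor of Rbx1, to 0.21 for Dcun1d3, a factor of Nedd8 attachment, with a median of -0.03. Skp1a, the adaptor that holds the F-box, had 474 and 488 CPM in control and Nrf2 eyes (log2 fold change 0.03, SE 0.05, edgeR adjusted p = 0.929). Cul1, the scaffold, had 151 and 143 CPM (-0.07, SE 0.15), and Rbx1, the RING subunit, 183 and 160.2 CPM (-0.20, SE 0.07, edgeR adjusted p = 0.297).

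The other F-box genes were called about as often as all genes. Of 76 in the table, 53 were tested and 4, or 7.55%, were called, against 6.33% of all genes, with a median of -0.04 for the list. All 4, Fbxw4, Fbxl19, Fbxl12 and Fbxo10, were lower in Nrf2 eyes, against 2.73% of all genes called as lower. Fbxw4 changed by -1.08 (SE 0.27, edgeR adjusted p = 0.0318), and its reads cannot be told apart with certainty from those of a gene that overlaps it on the opposite strand. The other 3 lay between -0.80 and -0.77, with adjusted p from 0.0211 to 0.0390, and Fbxl12 and Fbxo10 also overlap genes on the opposite strand. The highest log2 fold change among the 53 was 0.93, which did not pass, while that of Fbxo2 was 6.75. These 4 calls were not stable: 0 to 2 were left when a mouse was taken out, with 0 without mouse 2 or mouse 3, 2 were left without the pairing, and 0 with the rod markers as a covariate, while their log2 fold changes stayed between -1.19 and -0.59 in all 11 other fits.

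In ER-associated degradation, the route in which Fbxo2 is known to act, 1 of 33 genes tested passed, or 3.03%, against 6.33% of all genes, with 6 at an unadjusted p under 0.05, 3 called by DESeq2 and a median of -0.02. Edem2, a protein that trims mannose from misfolded glycoproteins, rose from 37.1 ± 4.49 to 60.9 ± 9.61 CPM (SD, n = 5), by 0.69 on the log2 scale (SE 0.08, edgeR adjusted p = 0.00803), was higher in 5 of 5 mice and was called in all 11 other fits. Its relative Edem1 had 0.70 (SE 0.20, edgeR adjusted p = 0.0568). Syvn1, the ligase of the ER membrane, had 0.05, and Vcp, the ATPase that extracts proteins from the ER, had -0.02. Ngly1, which removes N-glycans in the cytosol, had -0.21 (SE 0.08, edgeR adjusted p = 0.310).

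Among 21 genes that add or trim N-glycans, 1 passed, or 4.76%, against 6.33% of all genes, with 8 at an unadjusted p under 0.05, 4 called by DESeq2 and a median of 0.06. Man1a, a mannosidase of the Golgi, fell from 268 ± 52.8 to 178 ± 63.8 CPM (SD, n = 5), a difference of -0.64 on the log2 scale (SE 0.12, edgeR adjusted p = 0.0238) with the Nrf2 eye lower in 5 of 5 mice. This call was lost without mouse 1, 2, 4 or 5, without the pairing and with the rod covariate, while the log2 fold change stayed between -0.71 and -0.55. Mgat1, which starts the conversion of high-mannose to complex glycans, had -0.37 (SE 0.06, edgeR adjusted p = 0.0551).

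Of 10 genes whose proteins are known as targets of family members, 2 passed, both higher, against 3.60% of all genes called as higher, with a median of 0.09. Rgs2, a regulator of G protein signalling and a target of Fbxo44, went from 9.66 ± 2.16 to 18.9 ± 2.23 CPM (SD, n = 5), which is 0.98 on the log2 scale (SE 0.20, edgeR adjusted p = 0.0262). Lamp2, a lysosomal membrane glycoprotein and a target of Fbxo27, went from 483 ± 59.1 to 742 ± 90.4 CPM, which is 0.60 on the log2 scale (SE 0.10, edgeR adjusted p = 0.0276), and Lamp1 had 0.46 (SE 0.07, edgeR adjusted p = 0.0532). The Rgs2 call was lost whichever mouse was left out and the Lamp2 call without mouse 2, 3, 4 or 5, and both were lost with the rod covariate, while the log2 fold changes stayed between 0.80 and 1.11 for Rgs2 and between 0.50 and 0.72 for Lamp2. Of the targets known for Fbxo2, Itgb1 had 0.09, App 0.10, Bace1 -0.10, Insr -0.34 and the NMDA receptor subunit Grin1 -0.17, and none of these passed.

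**Figure D3:**
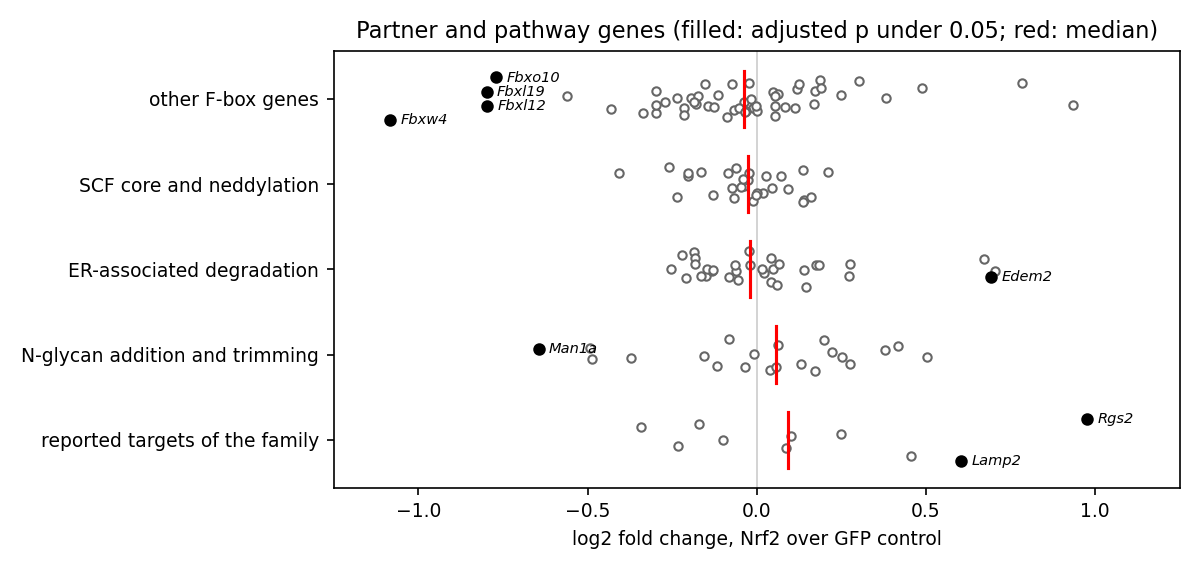
Log2 fold change (Nrf2 over GFP control) of each tested gene in the lists of other F-box genes, SCF ligase and neddylation, ER-associated degradation, N-glycan addition and trimming, and known targets, with filled circles for an adjusted p under 0.05 and a red line at each median. The medians lie between -0.04 and 0.09, and no gene of these lists comes near the 6.75 of Fbxo2.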

How the data were processed

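The authors aligned reads of amplified polyA RNA with STAR to mm10 with Ensembl release 91 and counted them with featureCounts, and in parallel used Salmon 0.8.2 (version from the submitters' processing notes) with DESeq2. Which table was deposited, and the strand setting, are not given in the sources used here. The deposited table holds raw counts for each Ensembl gene, which the authors had not normalized, and 0 columns of other samples. Library totals ran from 12298404 to 27310638. Symbols, positions and exon lengths came from GENCODE M21, which matched 47310 identifiers.

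The counts went into edgeR 4.0.16 under R 4.3.3 (filterByExpr, TMM, quasi-likelihood F test, mouse as a block, Benjamini-Hochberg adjustment at 0.05), after a test on simulated data. SE is the SD of the 5 within-mouse log2 CPM differences (prior count 2) over the square root of 5. Pairing comes from the animal number in the labels. Deviations from group means correlated with r 0.19 to 0.71 between the eyes of a mouse and -0.42 to 0.28 between eyes of different mice. These ranges overlap. P-values of the fits with the mouse block are set against the spread of the within-mouse differences over these 5 mice. Members and lists were chosen with earlier results of these data known. Named by rule were the members, tested protein-coding genes within 100 kb, the called genes with the 4 largest changes of each list, the 6 genes most like Fbxo2, Nfe2l2 and markers. Alternatives were no block, DESeq2 1.42.0, its size factors, no low-count filter, a mean of at least 50 counts, rod markers as a covariate, each mouse left out, and no division by length.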

Additional observations from a re-analysis of the deposited data

Results flagged for a closer look

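In the Nrf2 eye of mouse 5, Fbxo6 stood at 5.74 log2 CPM, below the 5.91 to 5.98 of the other 4 Nrf2 eyes. The gap to the nearest eye was 0.72 of the range of the group, above the critical value of 0.71 for 5 samples. Chance flags about 1 in 20 groups, or 1.85 of the 37 groups checked here. Without mouse 5 the log2 fold change of Fbxo6 was -0.09 (edgeR adjusted p = 0.701), against -0.15 with it.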

How the results depend on the processing

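The log2 fold changes of the 5 members kept their direction under all 11 alternative fits, with 6.49 to 7.08 for Fbxo2, and the 4 members that were tested kept their side of the threshold. With the samples not paired by mouse (no block), 755 genes were called against 1036, Fbxo2 changed by 6.67 and Fbxo27 by -1.40, and the other F-box genes gave 2 calls. Over all genes, 1823 were called by DESeq2, 444 with the rod markers as a covariate, and 584 to 857 with a mouse left out. DESeq2 called 2 chromosome 4 neighbours, 3 genes of ER-associated degradation and 4 N-glycan genes. The rod covariate left 1 chromosome 7 neighbour, 0 other F-box genes, 0 N-glycan genes and 0 known targets. A mean of at least 50 counts left 1 chromosome 7 neighbour, because Acp7 was not tested there, and no filter on low counts gave 2 calls in ER-associated degradation. With a mouse left out, the calls were 0 to 1 on chromosome 4, 0 to 2 for other F-box genes, 0 to 1 for N-glycan genes and 0 to 1 for known targets. Without dividing by length, Fbxo2 took 64.0% of the family in Nrf2 eyes.

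Uncalled chromosome 7 neighbours near 0 changed sign. Samd4b had -0.00304 without the block, -0.0136 with the rod covariate and -0.0597 to 0.116 with a mouse left out, Mrps12 had 0.0764 with the rod covariate and -0.131 to 0.0717 with a mouse left out, Pak4 ran from -0.270 to 0.0588 and Rinl from -0.190 to 0.0777. Except where stated, the cause of these shifts was not tested. Depth limits Fbxo2 in control eyes, where it had as few as 17 counts, and Acp7 and Ccer2, whose fold cannot be sized there.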
